A study of Rattus norvegicus with 8 samples.

Results

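The genes described here build and anchor actin filaments, generate their contractile force or are textbook targets of serum response factor (SRF), and they were followed in rat ovarian granulosa cells (GCs) given follicle stimulating hormone (FSH) or a constitutively active form of protein kinase A (PKA). The set names 41 genes by symbol, with no threshold on a measured value, but was chosen with earlier results of these data known. Each gene was read from the row that carries its symbol in the table of array signals. Of these, 37 had such a row, out of 13915 genes on the arrays with a symbol. *Actg1*, *Cnn2*, *Myl6* and *Cfl1* had none and were not analysed here.

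Actin filaments carry the contractile bundles, called stress fibers, of spread cells. Monomeric actin holds the coactivators of SRF in the cytoplasm, so that polymerization frees them to enter the nucleus, where SRF binds the CArG box in the promoters of actin, of actin-binding proteins and of its own gene. In GCs, FSH raises cAMP and so activates PKA, and cultured GCs are known to lose stress fibers and round up when cAMP is raised.

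The GCs came from 24 day-old female Sprague-Dawley rats and were cultured in M199 medium with testosterone, the substrate for estradiol, as 3 separate culture groups. Control cells were transduced with a lentivirus for the green fluorescent protein EGFP (n = 2 arrays), FSH cells with the same EGFP virus and treated with FSH at 100 ng/ml (n = 3), and PKA-CQR cells with a virus that expresses a mutant PKA catalytic subunit whose activity does not depend on cAMP (n = 3). RNA was taken at 24 hr. No array was made from cells given FSH without virus or PKA-CQR together with FSH, and every sample is a bulk culture. A lower signal can therefore mean fewer cells of a type or less RNA per cell, which cannot be told apart. Values are log2 signals from Affymetrix rat arrays, made by the authors with RMA, so that a difference of 1 is a 2-fold change. Median log2 signals lay between 8.37 and 8.44 on the 8 arrays, with correlations of 0.993 to 0.997 between replicates. Of 12 measured GC markers, 9 were higher with FSH and 7 with PKA-CQR than with EGFP. These are 75.0% and 58.3% of them, against 13.4% and 6.48% of all genes. *Inhba*, the inhibin beta A subunit, was higher by 1.45 and 1.31 on the log2 scale (adjusted p = 0.00025 and 0.0012).

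The sequence that SRF binds, a CArG box, is shown first because it is what the SRF targets are known to share. RefSeq promoters of the GRCr8 build, which run from 250 bases before to 50 bases after a start, were found for 31 of the 37 genes, with 38 promoters in all. *Actb*, *Tagln*, *Myl9*, *Actn4*, *Pdlim3* and *Lmod1* had no entry. The CArG box, 2 C, 6 bases that are A or T and 2 G, reads the same way on both strands, and 4 of the 38 promoters held it (10.5%), against 1.64% of all 33469 promoters. These were promoters of 3 genes, *Srf*, *Fhl1* and *Fhl2*. The stretch from 150 to 41 bases before the start is printed for each, with the box in capitals.
Srf, chr9:21923926-21924035 (+ strand): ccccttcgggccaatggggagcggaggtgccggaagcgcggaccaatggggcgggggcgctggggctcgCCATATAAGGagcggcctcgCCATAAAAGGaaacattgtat
Fhl1, chrX:139638346-139638455 (+ strand): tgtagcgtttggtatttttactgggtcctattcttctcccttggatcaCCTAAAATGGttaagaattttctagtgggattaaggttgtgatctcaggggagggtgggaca
Fhl2, chr9:52954581-52954690 (- strand): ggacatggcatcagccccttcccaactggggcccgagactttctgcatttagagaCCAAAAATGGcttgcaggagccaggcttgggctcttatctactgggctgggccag
Fhl2, chr9:52923367-52923476 (- strand): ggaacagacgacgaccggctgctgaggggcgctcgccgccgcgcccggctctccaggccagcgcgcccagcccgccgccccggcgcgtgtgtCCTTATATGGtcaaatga
*Srf* had 2 boxes, at 81 to 72 and at 61 to 52 bases before its start. The *Fhl1* box, in 1 of its 2 promoters, lay at 102 to 93 bases before the start, and those of the 2 *Fhl2* starts at 95 to 86 and at 58 to 49. A looser form, CCNNNNNNGG with 1 of the 6 central bases a G or C, was searched after the strict box and was found in 6 of 38 promoters (15.8%), against 8.1% of all promoters. *Acta2*, whose smooth muscle promoter is a classical SRF target, held 2 of these, shown in capitals.
Acta2, chr1:241172544-241172653 (- strand): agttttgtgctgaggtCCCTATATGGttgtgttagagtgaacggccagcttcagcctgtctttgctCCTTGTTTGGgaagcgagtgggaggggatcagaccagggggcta
The *Acta2* matches lay at 134 to 125 and at 84 to 75 bases before the start, and the other promoters with the looser form were those of *Filip1l*, *Tpm3* and *Zyx*. The full cAMP response element, TGACGTCA, was in 0 of the 38 promoters and in 1.83% of all. These matches are descriptions of sequence within a short window, and SRF binding was not measured.

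With FSH, 31 of the 37 genes were down-regulated (83.8%) and 0 were up-regulated, whereas 12.1% of all genes tested were lower and 13.4% higher at an adjusted p below 0.05 (limma, moderated test). The median log2 change was -0.93 over these genes and 0.06 over all genes. Of the 37, 18 fell at least 2-fold, against 3.32% of all genes. In 33 of the 37, every FSH array was below both EGFP arrays, against 19.3% of all genes. At an unadjusted p below 0.05 the counts were 33 lower and 0 higher, against 15.6% and 20.6% of all genes. The methods' t-test at the same level gave 27 lower and 0 higher, against 12.0% and 15.1%.

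With PKA-CQR, 27 of the 37 were down-regulated (73.0%) and 0 were up-regulated, against 6.02% lower and 6.48% higher over all genes. The median log2 change was -0.82, against 0.03 over all genes, and 11 fell at least 2-fold, against 1.12% of all. All PKA-CQR arrays were below both EGFP arrays for 31 of the 37, against 17.6% of all genes. Unadjusted p values below 0.05 were reached by 31 lower and 0 higher genes, against 11.4% and 12.9% of all genes. In the methods' t-test they were reached by 27 lower and 0 higher genes, against 9.26% and 11.3%. Both comparisons use the same 2 EGFP arrays, so they are not independent of each other. The summed linear signal of 11 theca and stroma markers, on the log2 scale, stood in the same order as most of these genes. It was 11.53 to 12.07 in EGFP, 10.98 to 11.34 in PKA-CQR and 10.45 to 10.70 in FSH arrays. Such a sum is carried by its brightest genes, and the median log2 change of the 11 was only -0.07 with FSH and -0.12 with PKA-CQR. The summed signal of macrophage and leukocyte markers, given below, stood in the same order. The part of these signals in the result was not tested.

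**Figure D1:**
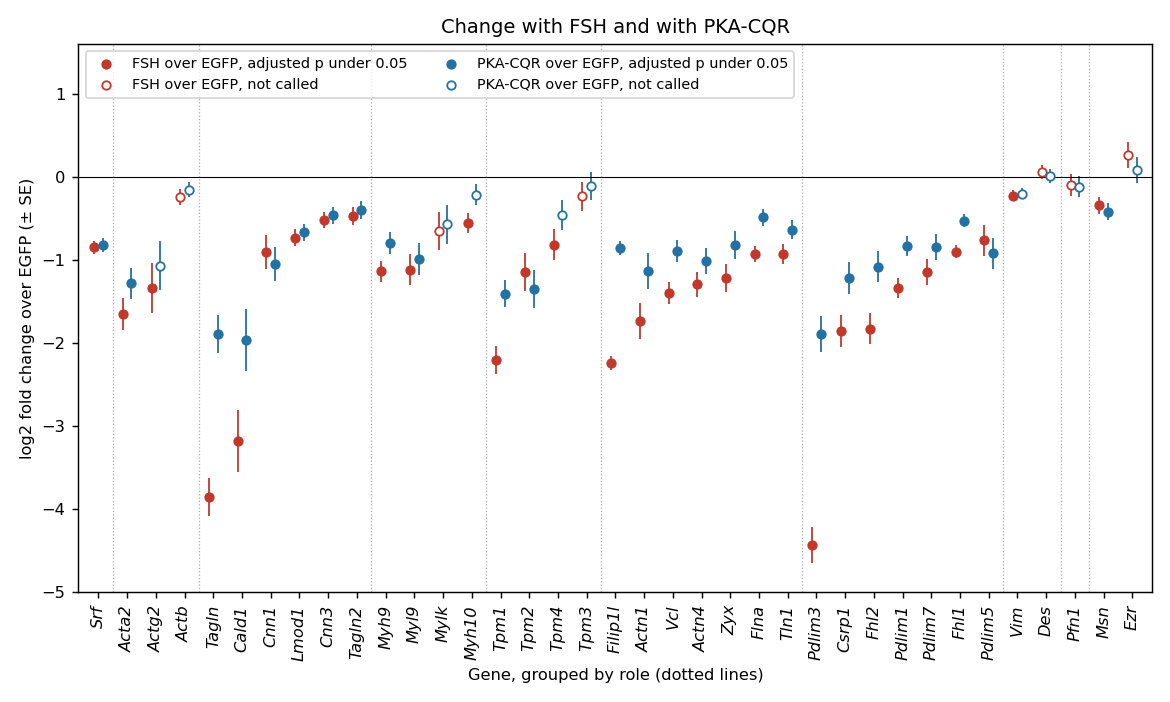
Log2 fold change over EGFP (y axis, ± SE from limma) of the 37 genes, grouped by role along the x axis, for FSH in red and PKA-CQR in blue. Filled points passed an adjusted p of 0.05, which 31 genes did with FSH and 27 with PKA-CQR, and every filled point lies below 0.

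The EGFP arrays differed from each other in these genes. EGFP replicate 1 was above EGFP replicate 2 for 34 of the 37 genes (91.9%), against 47.6% of all genes, by a median of 0.32 on the log2 scale and by up to 1.25. Without EGFP replicate 1, which leaves 1 control array assumed to vary like the others, 23 of the 31 FSH calls and 14 of the 27 PKA-CQR calls were kept (74.2% and 51.9%) and 0 were gained, and the median changes were -0.77 and -0.62. Over all genes, 63.6% of the lower calls with FSH and 41.5% of those with PKA-CQR were kept. Without EGFP replicate 2 the medians were -1.24 and -0.95. The part that this difference between the control cultures has in the results was not tested further. Because equally numbered arrays were taken as pairs, fits with a block were also made in 3 ways, with the replicate number as a fixed block, as a random block, and as a fixed block that places EGFP replicate 2 in culture group 3.

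*Srf*, the transcription factor itself, had signals of 11.31 and 11.19 in the EGFP arrays, 10.30, 10.44 and 10.46 in the FSH arrays and 10.40, 10.43 and 10.46 in the PKA-CQR arrays. No treated array overlapped an EGFP array, and the FSH and PKA-CQR arrays were intermixed. *Srf* fell 1.80-fold with FSH (log2 -0.85 ± 0.08, adjusted p = 0.00011) and 1.76-fold with PKA-CQR (log2 -0.82 ± 0.08, adjusted p = 0.00042). PKA-CQR minus FSH was 0.03 on the log2 scale, with a 95% interval of -0.14 to 0.19 (adjusted p = 0.91). Both calls remained in each of the 8 fits that left out 1 array.

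Among the actins, the smooth muscle forms fell and the cytoplasmic form was not called. *Acta2*, smooth muscle alpha-actin, had signals of 10.43 and 9.84 in the EGFP arrays, 8.63, 8.60 and 8.23 in the FSH arrays and 8.99, 8.66 and 8.91 in the PKA-CQR arrays, and the treated arrays lay well below both controls. It fell by 1.65 on the log2 scale with FSH (SE 0.19, adjusted p = 0.00033) and by 1.28 with PKA-CQR (SE 0.19, adjusted p = 0.0031). *Actg2*, enteric smooth muscle gamma-actin, gave 7.71 and 6.46 in the EGFP arrays, 5.78, 5.91 and 5.54 in the FSH arrays and 5.96, 5.94 and 6.15 in the PKA-CQR arrays. The EGFP arrays of *Actg2* were 1.25 apart, yet both exceeded all treated arrays, and the gene fell 2.53-fold with FSH (adjusted p = 0.011) with a log2 change of -1.07 ± 0.30 for PKA-CQR that was not called (adjusted p = 0.052). With PKA-CQR it was called under the random block and with EGFP replicate 2 in culture group 3 (adjusted p = 0.038 in each) but not under the fixed block (adjusted p = 0.069). The FSH fold of *Actg2* was 1.64 without EGFP replicate 1 and 3.90 without EGFP replicate 2. Its log2 change with PKA-CQR was -0.44 without EGFP replicate 1 and -1.69 without EGFP replicate 2.

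The cytoplasmic beta-actin gene *Actb* gave 14.73 and 14.56 in the EGFP arrays, 14.49, 14.47 and 14.25 in the FSH arrays and 14.47, 14.51 and 14.51 in the PKA-CQR arrays. The treated arrays were again all below the controls, but by only 0.24 with FSH (adjusted p = 0.10) and 0.15 with PKA-CQR (adjusted p = 0.40) on the log2 scale, and neither was called. The 95% interval of the FSH difference was -0.46 to -0.03. The *Actb* probe set is listed in the platform annotation also for *Actg1*, the gamma cytoplasmic actin, and for a related sequence, so its signal may hold more than 1 transcript. The beta-actin control probe sets of the array read the same RNA at 3 positions. At the 5′ end they gave 13.57 and 12.94 in the EGFP arrays, 13.00, 12.90 and 12.31 in the FSH arrays and 12.88, 13.02 and 12.68 in the PKA-CQR arrays, and at the 3′ end 14.59 and 14.47, then 14.30, 14.35 and 14.19, and 14.33, 14.36 and 14.35. The 3′ signals of all treated arrays were below both controls, whereas the 5′ signals overlapped.

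The gap between the 3′ and the 5′ signal, a measure of RNA integrity that is itself made from a gene of this family, was lowest in EGFP replicate 1 (1.02) and highest in FSH replicate 3 (1.88). In EGFP replicate 2 it was 1.53, so the 2 controls differed in this measure. The same gap of the GAPDH control averaged 0.22, 0.24 and 0.26 in the EGFP, FSH and PKA-CQR arrays. It ran from 0.03 in FSH replicate 1 to 0.56 in FSH replicate 3, with 0.05 in EGFP replicate 1 and 0.38 in EGFP replicate 2. With the beta-actin gap as a covariate, 31 genes were lower with FSH, 27 with PKA-CQR, and 1, *Ezr*, was higher with FSH.

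**Figure D2:**
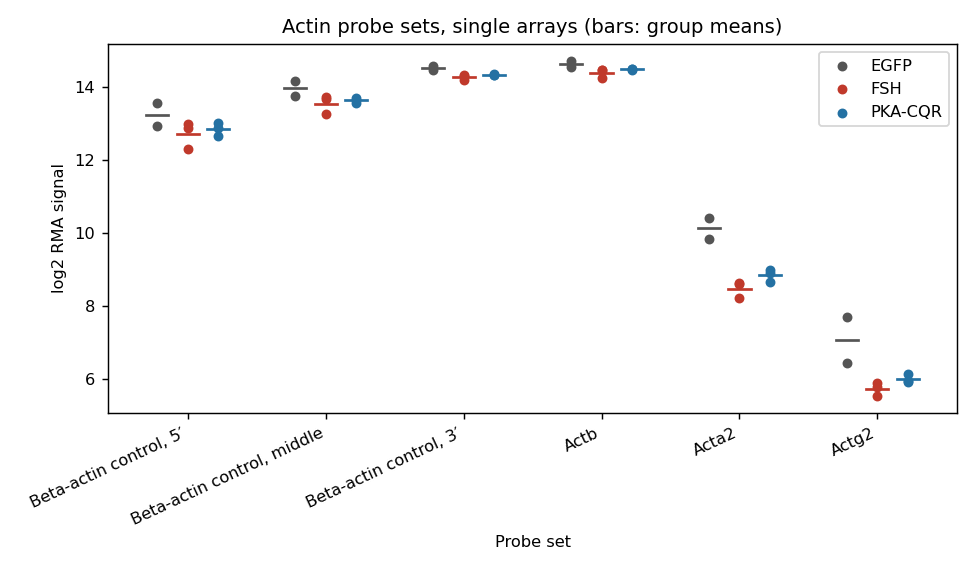
Log2 RMA signal (y axis) of the beta-actin control probe sets and of 3 actin genes (x axis) in each array, with a bar at the mean of each group (EGFP n = 2, FSH n = 3, PKA-CQR n = 3). Levels can be compared between groups within a probe set only. The *Acta2* and *Actg2* arrays of the treated groups lie below both controls by more than those of *Actb*.

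The calponin family and the proteins of the thin filament fell with both treatments, 6 of 6 measured in each. *Tagln*, which encodes transgelin, an actin-binding protein of the calponin family, had signals of 13.61 and 12.74 in the EGFP arrays, 9.22, 9.31 and 9.43 in the FSH arrays and 11.29, 11.07 and 11.47 in the PKA-CQR arrays. The 3 groups formed separate levels, with PKA-CQR between the others. *Tagln* fell 14.4-fold with FSH (log2 -3.85 ± 0.23, adjusted p = 8.5e-06), to 6.93% of the EGFP level, and 3.72-fold with PKA-CQR (log2 -1.90 ± 0.23, adjusted p = 0.0011). *Cald1* encodes caldesmon, which binds actin, tropomyosin and myosin and inhibits contraction. Its signals were 13.15 and 11.93 in the EGFP arrays, 9.52, 9.62 and 8.93 in the FSH arrays and 10.96, 10.64 and 10.13 in the PKA-CQR arrays, also without overlap between any of the groups. *Cald1* fell 9.08-fold with FSH (adjusted p = 0.00034) and 3.91-fold with PKA-CQR (adjusted p = 0.0096). These falls were 5.96-fold and 2.56-fold without EGFP replicate 1 and 13.9-fold and 5.96-fold without EGFP replicate 2.

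The other 4 of this class moved less. *Cnn1*, smooth muscle calponin, gave 6.01 and 5.34 in the EGFP arrays, 4.79, 4.73 and 4.78 in the FSH arrays and 4.95, 4.52 and 4.41 in the PKA-CQR arrays, with the treated arrays below both controls. *Lmod1*, the actin nucleator leiomodin, gave 6.29 and 6.12 in the EGFP arrays, 5.44, 5.44 and 5.54 in the FSH arrays and 5.61, 5.36 and 5.65 in the PKA-CQR arrays. Both were dim, with only 9.70% and 18.8% of genes dimmer, yet no treated array of *Lmod1* overlapped a control either. *Cnn1* fell 1.87-fold and 2.06-fold (adjusted p = 0.012 and 0.011), and *Lmod1* fell 1.66-fold and 1.59-fold (adjusted p = 0.0010 and 0.0037). *Cnn3*, the acidic calponin, gave 13.09 and 12.86 in the EGFP arrays, 12.41, 12.55 and 12.41 in the FSH arrays and 12.40, 12.58 and 12.55 in the PKA-CQR arrays, and fell 1.43-fold and 1.38-fold (adjusted p = 0.0056 and 0.018). *Tagln2*, a widely expressed transgelin, had EGFP signals of 12.80 and 12.71 against a range of 12.16 to 12.48 in treated arrays, and fell 1.39-fold and 1.32-fold (adjusted p = 0.012 and 0.046). Without EGFP replicate 1, *Cnn1*, *Cnn3* and *Tagln2* lost both calls (adjusted p = 0.089, 0.054 and 0.087 with FSH, and 0.078, 0.15 and 0.24 with PKA-CQR), as did *Cald1* with PKA-CQR (adjusted p = 0.066). The *Tagln2* call with PKA-CQR held in 3 of 8 fits that left out 1 array, and that of *Cnn3* in 6 of 8.

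Tropomyosins, coiled-coil proteins that lie along the actin filament, differed among themselves. *Tpm1* gave 12.13 and 11.57 in the EGFP arrays, 9.43, 9.83 and 9.68 in the FSH arrays and 10.40, 10.44 and 10.49 in the PKA-CQR arrays, again as 3 separate levels. It fell 4.61-fold with FSH (log2 -2.21 ± 0.17, adjusted p = 3.0e-05) and 2.65-fold with PKA-CQR (log2 -1.41 ± 0.17, adjusted p = 0.0010). *Tpm2*, which is abundant in muscle, gave 8.78 and 7.86 in the EGFP arrays, 7.21, 7.18 and 7.14 in the FSH arrays and 6.95, 6.78 and 7.16 in the PKA-CQR arrays, and the treated groups overlapped each other but not the controls. Its fall was 2.21-fold with FSH (adjusted p = 0.0067) and 2.56-fold with PKA-CQR (adjusted p = 0.0058). *Tpm4*, a cytoplasmic form, gave 13.44 and 12.92 in the EGFP arrays, 12.46, 12.54 and 12.10 in the FSH arrays and 12.75, 12.89 and 12.53 in the PKA-CQR arrays. It fell 1.76-fold with FSH (adjusted p = 0.012, and 0.10 without EGFP replicate 1), and its PKA-CQR change of -0.46 ± 0.18 was not called (adjusted p = 0.17) except with EGFP replicate 2 placed in culture group 3 (adjusted p = 0.0051). *Tpm3* arrays ranged from 11.77 to 12.42 with overlap of all groups, and its changes of -0.23 ± 0.17 and -0.11 ± 0.17 on the log2 scale were not called (adjusted p = 0.38 and 0.78), although the fixed block and the beta-actin covariate described above each called that with FSH (adjusted p = 0.043 under the block).

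Of the myosin II genes, which provide the contractile motor, both heavy chains and the light chain fell with FSH. *Myl9*, the regulatory light chain, gave 11.72 and 11.35 in the EGFP arrays, 10.07, 10.56 and 10.62 in the FSH arrays and 10.34, 10.59 and 10.71 in the PKA-CQR arrays. The treated groups overlapped each other and lay below the controls, with falls of 2.17-fold (adjusted p = 0.0026) and 1.98-fold (adjusted p = 0.0099, and 0.095 without EGFP replicate 1). *Myh9*, the heavy chain of non-muscle myosin IIA, gave 12.16 and 11.73 in the EGFP arrays, 10.67, 10.95 and 10.81 in the FSH arrays and 11.15, 11.16 and 11.14 in the PKA-CQR arrays. It fell 2.20-fold with FSH (adjusted p = 0.00028) and 1.74-fold with PKA-CQR (adjusted p = 0.0045). *Myh10*, the heavy chain of myosin IIB, gave 13.50 and 13.15 in the EGFP arrays, 12.94, 12.67 and 12.69 in the FSH arrays and 13.16, 13.04 and 13.14 in the PKA-CQR arrays, and 1 PKA-CQR array exceeded the lower control. *Myh10* fell 1.47-fold with FSH (adjusted p = 0.010, and 0.085 without EGFP replicate 1), and its change of -0.21 ± 0.12 with PKA-CQR was not called (adjusted p = 0.35). *Mylk*, the kinase that phosphorylates the light chain, had EGFP signals of 10.47 and 9.59 and treated signals of 9.25 to 9.71, and its changes of -0.65 ± 0.23 and -0.57 ± 0.23 were not called (adjusted p = 0.074 and 0.17). The FSH change of *Mylk* was called under each of the 3 blocks (adjusted p = 0.020 fixed, 0.038 random and 0.036 with EGFP replicate 2 in culture group 3).

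**Figure D3:**
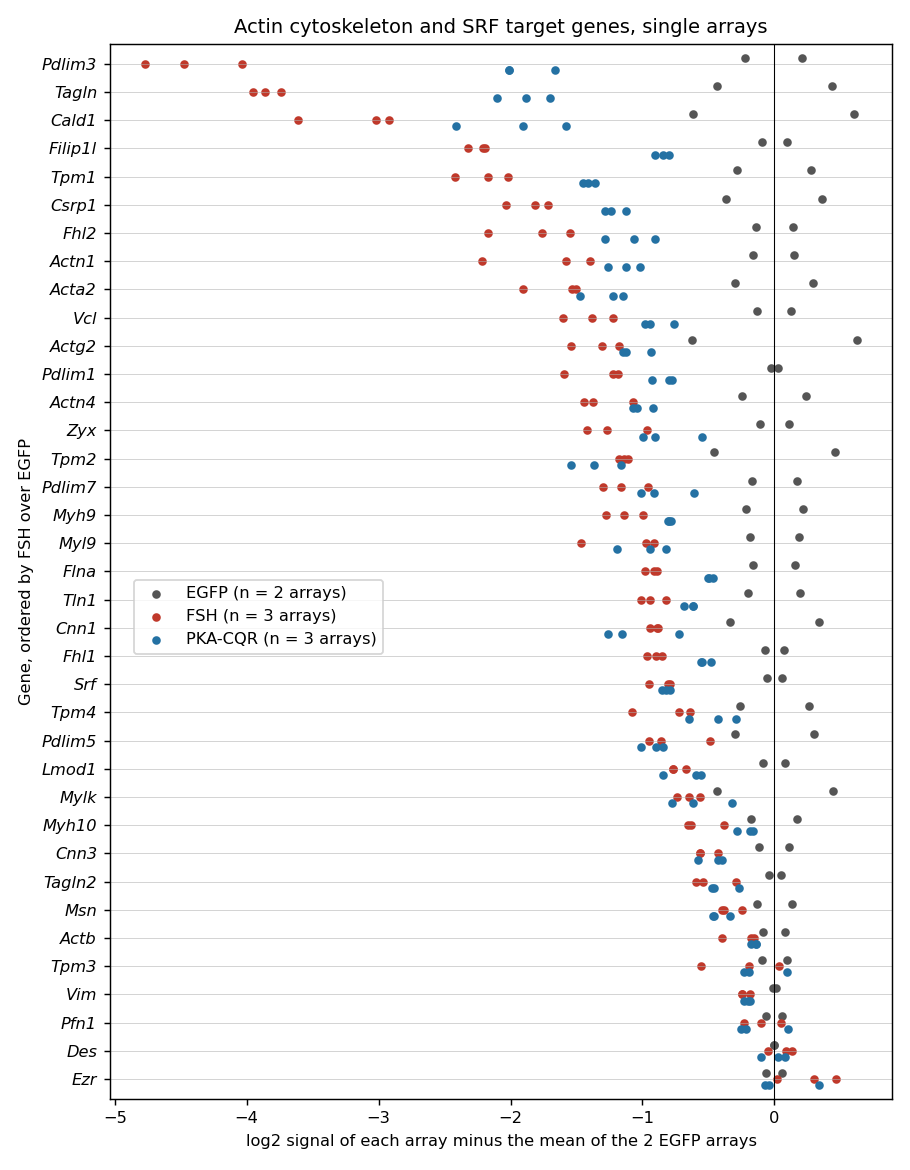
Log2 signal of each array minus the mean of the 2 EGFP arrays (x axis) for the 37 genes (y axis), ordered by the FSH change. Grey, red and blue points are EGFP (n = 2), FSH (n = 3) and PKA-CQR (n = 3) arrays. For *Pdlim3*, *Tagln*, *Cald1*, *Filip1l* and *Tpm1* the 3 groups stand apart, with PKA-CQR in the middle.

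All 7 genes of filament crosslinkers and focal adhesions fell with each treatment, by a median of 1.30 on the log2 scale with FSH and 0.85 with PKA-CQR. *Filip1l*, filamin A interacting protein 1-like, had signals of 13.38 and 13.19 in the EGFP arrays, 10.96, 11.07 and 11.09 in the FSH arrays and 12.44, 12.38 and 12.48 in the PKA-CQR arrays. Arrays of a group lay close together, and the 3 groups did not overlap. *Filip1l* fell 4.73-fold with FSH (log2 -2.24 ± 0.09, adjusted p = 1.5e-06) but 1.81-fold with PKA-CQR (log2 -0.85 ± 0.09, adjusted p = 0.00044). *Flna* itself, which encodes the crosslinker filamin A, gave 13.05 and 12.73 in the EGFP arrays, 11.98, 12.00 and 11.91 in the FSH arrays and 12.40, 12.39 and 12.43 in the PKA-CQR arrays. Again there were 3 separate levels, and the falls were 1.91-fold (adjusted p = 0.00019) and 1.40-fold (adjusted p = 0.012).

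Vinculin and talin link integrins to actin at focal adhesions. *Vcl* gave 13.22 and 12.96 in the EGFP arrays, 11.49, 11.71 and 11.87 in the FSH arrays and 12.15, 12.11 and 12.33 in the PKA-CQR arrays, without overlap between groups, and fell 2.64-fold with FSH (adjusted p = 0.00010) and 1.86-fold with PKA-CQR (adjusted p = 0.0030). *Tln1* gave 10.08 and 9.68 in the EGFP arrays, 9.06, 8.94 and 8.87 in the FSH arrays and 9.20, 9.27 and 9.27 in the PKA-CQR arrays, and its falls were 1.90-fold and 1.55-fold (adjusted p = 0.00054 and 0.0086). The alpha-actinins cross-link filaments into bundles. *Actn1* gave 13.62 and 13.31 in the EGFP arrays, 11.25, 11.89 and 12.07 in the FSH arrays and 12.21, 12.34 and 12.45 in the PKA-CQR arrays. *Actn4* gave 12.54 and 12.06 in the EGFP arrays, 10.93, 11.23 and 10.86 in the FSH arrays and 11.23, 11.26 and 11.38 in the PKA-CQR arrays. For both, all treated arrays were below the controls. *Actn1* fell 3.32-fold and 2.20-fold (adjusted p = 0.00052 and 0.010) and *Actn4* 2.45-fold and 2.02-fold (adjusted p = 0.00037 and 0.0034). *Zyx*, zyxin, which gathers at strained stress fibers and adhesions, gave 11.16 and 10.94 in the EGFP arrays, 9.63, 9.78 and 10.08 in the FSH arrays and 10.14, 10.05 and 10.50 in the PKA-CQR arrays. The treated groups overlapped for *Zyx*, which fell 2.32-fold and 1.77-fold (adjusted p = 0.00086 and 0.013). Without EGFP replicate 1 the PKA-CQR calls of *Flna*, *Tln1*, *Actn1* and *Zyx* were lost (adjusted p = 0.080, 0.054, 0.093 and 0.11), while all 7 FSH calls were kept.

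The LIM proteins, which carry zinc-binding LIM domains, dock on alpha-actinin or on filament bundles, and 7 of 7 fell with each treatment. *Pdlim3*, which binds alpha-actinin, showed the largest fall of the 37 genes with FSH. Its signals were 11.03 and 10.60 in the EGFP arrays, 6.34, 6.78 and 6.05 in the FSH arrays and 9.16, 8.81 and 8.81 in the PKA-CQR arrays. The groups were far apart, with the highest FSH array 2.03 below the lowest PKA-CQR array. *Pdlim3* fell 21.6-fold with FSH (log2 -4.43 ± 0.22, adjusted p = 3.7e-06), to 4.64% of the EGFP level, and 3.71-fold with PKA-CQR (log2 -1.89 ± 0.22, adjusted p = 0.00090). *Pdlim1*, a relative of *Pdlim3* that also binds alpha-actinin, gave 11.96 and 12.01 in the EGFP arrays, 10.39, 10.80 and 10.76 in the FSH arrays and 11.06, 11.21 and 11.19 in the PKA-CQR arrays. Here the controls nearly coincided and stood above all treated arrays, and the falls were 2.53-fold (adjusted p = 9.2e-05) and 1.78-fold (adjusted p = 0.0030).

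*Pdlim7*, which encodes Enigma, gave 9.89 and 9.55 in the EGFP arrays, 8.42, 8.56 and 8.76 in the FSH arrays and 8.71, 8.81 and 9.11 in the PKA-CQR arrays. *Pdlim5*, the Enigma homologue, gave 8.63 and 8.03 in the EGFP arrays, 7.47, 7.84 and 7.38 in the FSH arrays and 7.48, 7.32 and 7.43 in the PKA-CQR arrays. All treated arrays of both were below the controls. With FSH and PKA-CQR, *Pdlim7* fell 2.21-fold and 1.80-fold (adjusted p = 0.00082 and 0.0084), and *Pdlim5* fell 1.70-fold and 1.89-fold (adjusted p = 0.017 and 0.013). *Fhl1* and *Fhl2*, which encode LIM-only proteins and hold a CArG box in at least 1 promoter, fell by different amounts. *Fhl2* gave 11.57 and 11.29 in the EGFP arrays, 9.26, 9.67 and 9.88 in the FSH arrays and 10.15, 10.37 and 10.53 in the PKA-CQR arrays. *Fhl1* gave 11.74 and 11.60 in the EGFP arrays, 10.82, 10.77 and 10.70 in the FSH arrays and 11.19, 11.12 and 11.11 in the PKA-CQR arrays. In each, EGFP, PKA-CQR and FSH arrays formed 3 levels in that order. *Fhl2* fell 3.55-fold and 2.12-fold (adjusted p = 0.00016 and 0.0060) and *Fhl1* 1.87-fold and 1.44-fold (adjusted p = 6.3e-05 and 0.0029). *Csrp1*, a LIM protein that binds zyxin and alpha-actinin, gave 10.51 and 9.78 in the EGFP arrays, 8.11, 8.33 and 8.43 in the FSH arrays and 8.91, 8.86 and 9.02 in the PKA-CQR arrays, with falls of 3.62-fold and 2.33-fold (adjusted p = 0.00017 and 0.0040). Without EGFP replicate 1, *Pdlim5* lost both calls (adjusted p = 0.12 and 0.093) and *Pdlim7* and *Fhl2* lost that with PKA-CQR (adjusted p = 0.079 and 0.062).

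The remaining 5 genes belong to intermediate filaments, monomer binding and membrane linkage, and showed small differences or none that was called. *Vim*, vimentin, the intermediate filament protein of mesenchymal cells, had EGFP signals of 14.58 and 14.56 and treated signals of 14.32 to 14.38, and fell 1.17-fold with FSH (adjusted p = 0.034), a call that held in 0 of 8 fits that left out 1 array and not under the fixed block (adjusted p = 0.057). Its PKA-CQR change of -0.20 ± 0.07 was not called (adjusted p = 0.089). *Des*, the muscle intermediate filament desmin, ranged from 6.43 to 6.66 over all arrays, with log2 differences of 0.06 and 0.01 (adjusted p = 0.68 and 0.98). *Msn*, moesin, which ties actin to the membrane, fell 1.27-fold and 1.34-fold (adjusted p = 0.034 and 0.026). Those calls held in 3 and 5 of 8 fits that left out 1 array, with adjusted p = 0.25 and 0.20 without EGFP replicate 1, and neither was called under the fixed block (adjusted p = 0.071 and 0.057). Its relative *Ezr*, ezrin, had overlapping groups and log2 differences of 0.26 ± 0.16 and 0.08 ± 0.16 (adjusted p = 0.28 and 0.84). *Pfn1*, profilin, which binds actin monomers, was also not called, with differences of -0.10 ± 0.13 and -0.12 ± 0.13 (adjusted p = 0.64 and 0.66).

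The direct comparison sets PKA-CQR against FSH on the same treated arrays. In the paper, kinase signals after FSH were fast and short-lived, whereas those of PKA-CQR built up as its virus was expressed. The comparison therefore mixes the kind of stimulus with its timing, which cannot be told apart. Of the 37, 9 had higher signals in PKA-CQR than in FSH cells (24.3%), against 3.95% of all genes, and 0 were lower, against 2.96%. At an unadjusted p below 0.05, 16 were higher and 0 lower, against 9.04% and 9.02% of all genes, and with the methods' t-test 14 and 0, against 7.88% and 8.19%. The median log2 difference was 0.29, against -0.02 over all genes. All PKA-CQR arrays exceeded all FSH arrays for 18 of the 37, against 10.7% of genes, and 0 were all below, against 12.1%. Within the 3 pairs of equally numbered arrays, PKA-CQR was higher in each pair for 23 genes (62.2%), against 19.3% of all genes, and lower in each pair for 2, *Ezr* and *Msn* (5.41%), against 25.9%. A PKA-CQR level between the others was the rule for genes that fell with FSH. The PKA-CQR mean lay between the FSH and EGFP means for 27 of the 31 here (87.1%). Of all 1680 genes that fell with FSH, it did so for 92.7%. Both sets were selected by their FSH and EGFP means, which in itself favours a PKA-CQR mean between them.

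*Pdlim3* was 5.82-fold higher with PKA-CQR than with FSH (log2 2.54 ± 0.20, adjusted p = 0.00034), *Tagln* 3.88-fold (log2 1.96 ± 0.20, adjusted p = 0.0011) and *Filip1l* 2.62-fold (log2 1.39 ± 0.08, adjusted p = 6.0e-05). These 3 differences were called in each of the 8 fits that left out 1 array. The other 6 were smaller. *Tpm1* was 1.74-fold higher (adjusted p = 0.015), *Fhl2* 1.68-fold (adjusted p = 0.033) and *Vcl* 1.42-fold (adjusted p = 0.038), and *Pdlim1*, *Flna* and *Fhl1* were 1.42-, 1.36- and 1.29-fold higher (adjusted p = 0.030, 0.020 and 0.016). Of the 8 fits that left out 1 array, *Tpm1*, *Pdlim1* and *Fhl1* were called in 5, *Fhl2* and *Vcl* in 3 and *Flna* in 2. In all, 5 of the 9 were called without FSH replicate 2, 3 without PKA-CQR replicate 1, 3 without PKA-CQR replicate 2 and 4 without PKA-CQR replicate 3.

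*Cald1* was 2.33-fold higher with PKA-CQR but not called (log2 1.22 ± 0.33, adjusted p = 0.073). It was called under each of the 3 blocks (adjusted p = 0.017 fixed, 0.034 random and 0.0013 with EGFP replicate 2 in culture group 3). *Myh10*, at 0.12 without a block, had adjusted p = 0.032, 0.054 and 0.029 in the same order, and *Zyx*, at 0.20 without a block, had 0.032, 0.11 and 0.11. *Tpm4*, at 0.31 without a block, was called only with EGFP replicate 2 in culture group 3 among the blocks (adjusted p = 0.16, 0.21 and 0.020). *Csrp1* was 1.56-fold higher (adjusted p = 0.068) and was called only under the random block among these (adjusted p = 0.063, 0.043 and 0.071). *Actn1* was 1.51-fold higher and was called neither without a block (adjusted p = 0.13) nor with one (adjusted p = 0.087, 0.084 and 0.095). For *Acta2* the log2 difference of 0.37 had a 95% interval of -0.02 to 0.76 (adjusted p = 0.31). *Tpm2*, *Ezr*, *Pdlim5* and *Cnn1* had values between -0.21 and -0.14 that were not called.

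**Figure D4:**
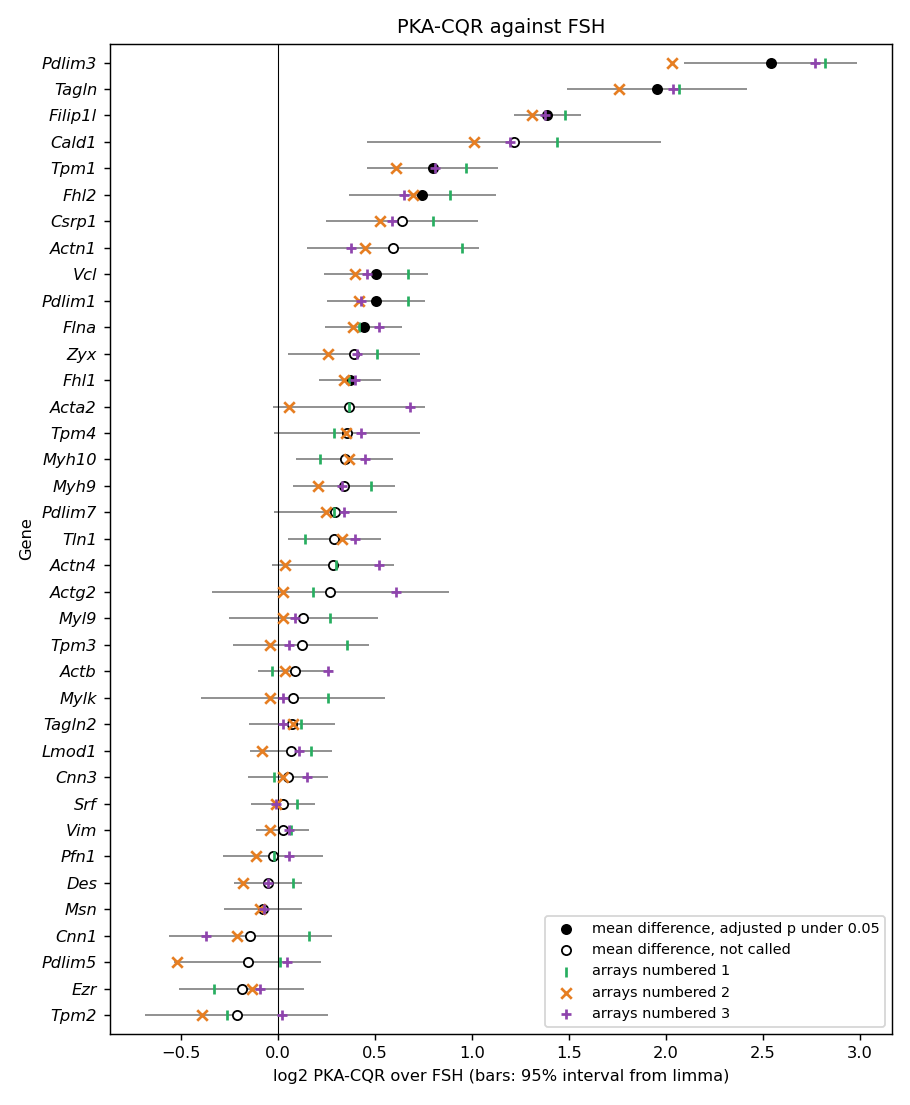
Log2 PKA-CQR over FSH (x axis) of the 37 genes (y axis). Circles are the mean difference, filled at an adjusted p below 0.05 (9 genes), grey lines are 95% intervals from limma, and coloured marks are the differences within the 3 pairs of equally numbered arrays. *Pdlim3*, *Tagln* and *Filip1l* lie farthest to the right, and *Srf* lies at 0.03.

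Other genes of the actin pathway were counted from lists that hold none of the 37 and were also chosen with earlier results known. Of 29 measured adaptors of adhesions and actin linkers, 16 were lower with FSH and 10 with PKA-CQR, with 0 higher in each (55.2% and 34.5% lower, against 12.1% and 6.02% of all genes). In PKA-CQR over FSH, 8 were higher and 0 lower (27.6% higher, against 3.95%). The list medians over EGFP were -0.39 and -0.28. *Nexn*, the filament-binding protein nexilin, gave 9.09 and 8.67 in the EGFP arrays, 6.03, 6.23 and 6.08 in the FSH arrays and 6.62, 6.52 and 6.73 in the PKA-CQR arrays. No treated array overlapped the controls, and its changes were -2.77 with FSH and -2.26 with PKA-CQR on the log2 scale (adjusted p = 3.3e-06 and 2.2e-05).

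Genes of actin nucleation and turnover were called at shares near those of all genes. Of 30 measured, 5 were lower and 3 higher with FSH (16.7% and 10%, against 12.1% and 13.4% of all genes), and 2 lower and 1 higher with PKA-CQR (6.67% and 3.33%, against 6.02% and 6.48%). *Cotl1*, a coactosin-like protein that binds filaments, gave 6.23 and 6.40 in the EGFP arrays, 9.96, 9.62 and 9.74 in the FSH arrays and 9.30, 9.34 and 9.31 in the PKA-CQR arrays. It rose by 3.46 with FSH and by 3.00 with PKA-CQR on the log2 scale (adjusted p = 5.8e-07 and 1.5e-06), with no overlap between treated and control arrays. *Pfn2*, another profilin gene, rose by 0.77 with FSH (adjusted p = 0.0016). *Gsn*, the severing protein gelsolin, fell by 0.75 and 0.41 (adjusted p = 0.0012 and 0.043), and *Wdr1*, which aids filament disassembly, by 0.65 and 0.56 (adjusted p = 0.0014 and 0.0065). SRF also acts with ternary complex factors on immediate early genes. Of 12 such genes and factors, 3 were higher and 1 lower with FSH (25% and 8.33%), and 2 higher and 1 lower with PKA-CQR (16.7% and 8.33%). *Ier2* rose by 0.54 and 0.55 and *Fosl1* by 0.46 and 0.45, whereas *Elk3*, a ternary complex factor, fell by 0.46 and 0.50 (adjusted p from 0.0043 to 0.034).

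**Figure D5:**
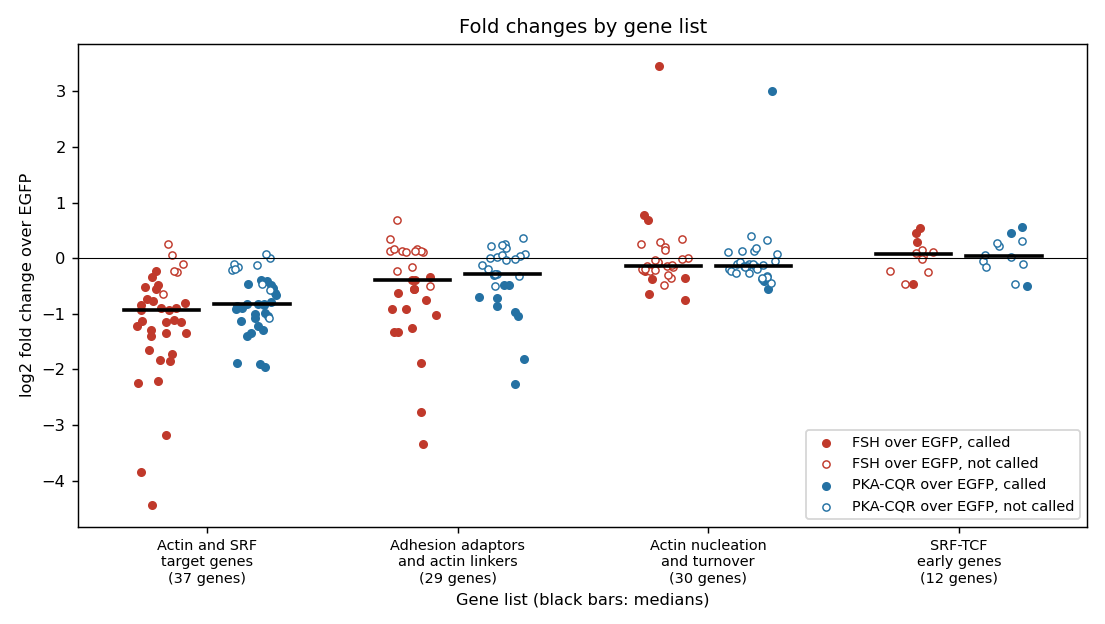
Log2 fold change over EGFP (y axis) of each gene of the 37 and of 3 pathway lists (x axis), for FSH in red and PKA-CQR in blue, with filled points at an adjusted p below 0.05 and black bars at the medians. The medians are -0.93 and -0.82 for the 37 genes and nearest to 0 for the immediate early list.

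Many of these genes are also expressed by smooth muscle, theca and stromal cells, and markers of those cells were read beside them. Of 17 smooth muscle and pericyte markers, 5 are among the 37 genes. The summed linear signal of the other 12, on the log2 scale, was 11.65 to 11.92 in EGFP, 11.26 to 11.69 in FSH and 11.69 to 11.84 in PKA-CQR arrays. Of these 12, 3 were lower and 1 higher with FSH, and 1 lower and 1 higher with PKA-CQR. Of all 17, 7 were lower and 1 higher with FSH and 5 lower and 1 higher with PKA-CQR, so that 4 of the lower ones in each were *Acta2*, *Tagln*, *Cnn1* and *Lmod1*. The lower ones were 41.2% and 29.4% of the 17, against 12.1% and 6.02% of all genes. The higher one was 5.88% in each, against 13.4% and 6.48%. *Myh11*, the smooth muscle myosin heavy chain, gave 7.90 and 7.08 in the EGFP arrays, 6.97, 6.93 and 7.04 in the FSH arrays and 7.08, 7.10 and 7.11 in the PKA-CQR arrays. Its EGFP replicate 1 stood above the rest while EGFP replicate 2 was near the treated arrays, and its changes of -0.51 and -0.39 were not called (adjusted p = 0.093 and 0.27). The 3 that were lower with FSH were *Mcam*, an adhesion molecule of pericytes and vessels, *Cspg4*, the pericyte proteoglycan NG2, and *Smtn*, smooth muscle smoothelin. *Mcam* changed by -2.38 and -0.96 (adjusted p = 2.7e-05 and 0.0082), *Cspg4* by -1.17 and -0.26 (adjusted p = 0.0011 and 0.41) and *Smtn* by -0.36 and -0.17 (adjusted p = 0.029 and 0.35). The higher one was *Abcc9*, a channel subunit, at 2.48 and 1.37 (adjusted p = 2.3e-05 and 0.0016). The markers *Rgs5*, *Kcnmb1*, *Notch3* and *Pdgfrb* had log2 differences between 0.02 and 0.18 and were not called in either comparison, with *Rgs5* and *Kcnmb1* among the dimmest genes of the arrays (5.53% and 8.28% of genes dimmer). Also called in neither were *Kcnj8* (-0.14 with FSH and 0.04 with PKA-CQR), *Myocd* (-0.005 and 0.49) and *Synm* (0.52 and 0.67).

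The summed theca and stroma signal, in which *Dcn* and *Col3a1* were the brightest genes of the EGFP arrays, was highest in EGFP and lowest in FSH arrays, without overlap. Of the 11 markers measured, 3 were lower with FSH, namely the matrix genes *Dcn* (-2.20) and *Col3a1* (-1.86) and the receptor *Pdgfra* (-0.61), and 1, *Cyp17a1*, was higher (0.94). With PKA-CQR, *Col3a1* was lower and *Cyp17a1* higher. The shares lower and higher with FSH were 27.3% and 9.09%, against 12.1% and 13.4% of all genes. With PKA-CQR they were 9.09% each, against 6.02% and 6.48%. *Insl3*, a defining theca gene, had a log2 difference of 0.08 with FSH and was not called (adjusted p = 0.65). The summed endothelial signal was 9.59 to 9.74 in EGFP, 9.61 to 9.85 in FSH and 9.67 to 9.80 in PKA-CQR arrays, and the macrophage and leukocyte signal was 11.84, 11.32 to 11.52 and 11.64 to 11.83. The macrophage and leukocyte signal was thus also highest in EGFP and lowest in FSH arrays, although the highest PKA-CQR array was close to EGFP. The brightest of the 12 macrophage and leukocyte markers, *Cd14*, was lower with FSH (-0.88), whereas *Cd68* (0.69) and *Cd74* (1.13) were higher, and 0 of the 12 were called with PKA-CQR. The lower and higher shares of this list with FSH were 8.33% and 16.7%. Of 5 oocyte and 8 surface epithelium markers, 1 and 1 were lower and 0 and 1 higher with FSH. The lower ones were 20% and 12.5% of their lists and the higher one 12.5%, so that each share rests on few genes. The part of such cells in the changes of the 37 genes was not tested.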

How the data were processed

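The authors deposited log2 signals of 8 Affymetrix rat genome arrays, which per the labels were made with RMA (version not given in the sources used here). RMA corrects background, brings all arrays to one distribution and sums up the probes of a set, and quantile scaling can hide a shift shared by most genes. In the methods the arrays were analysed as MAS5.0 values with a Student t-test, and those values were not used here. Of 31099 probe sets, 13915 carried a symbol in the deposited table, 1 per gene, so a gene rests on 1 probe set toward the 3′ end. For 36 of the 37 genes the platform annotation gives the same single symbol. With 2 or 3 arrays per group, precision is limited by their number.

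The fit used limma 3.58.1 (lmFit and eBayes over all 8 arrays) in R 4.3.3. Benjamini-Hochberg adjustment ran over the 13915 genes, and a gene was called at an adjusted p below 0.05. The fit was tested on simulated data. Replicates are biological per the labels, and the methods describe 3 separate groups of cells that were cultured. The genes and lists were chosen with earlier results of these data known. All measured genes are named, with array values for those called at a log2 change of at least 0.5, and from each pathway list the 2 genes with the largest called rise and fall over EGFP. *Inhba* is outside that rule and was picked with its values in view. A list and a gene that this rule would name are not reported here. The methods describe 3 culture groups given the treatments, and the FSH and PKA-CQR arrays of number 1, 2 and 3 deviated together from their group means, with correlations of 0.24, 0.44 and 0.62, so these were taken as pairs, although FSH replicate 1 correlated more with PKA-CQR replicate 2 (0.32) than with its own number. EGFP replicate 2 correlated at -0.27 and -0.32 with the arrays of its number and at 0.52 and 0.41 with those of number 3, and its pairing is unsettled. With only 2 EGFP arrays their deviations mirror each other, so EGFP replicate 1 has the same values with the opposite sign. The correlations therefore cannot show which of the 2 is placed wrongly, if either is. Alternatives were 2 scalings, 2 filters on dim genes, adjustment over all probe sets, other variance models, array weights, 3 blocks, fits of 2 groups, the methods' t-test, the beta-actin covariate and leaving out each array. Further probe sets of these genes could not be named from the annotation used here.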

Additional observations from a re-analysis of the deposited data

How the results depend on the processing

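No direction of a called change was reversed in any alternative run, and 19 values called neither before nor after changed sign. The methods' t-test with adjusted p values kept 6 of the 31 lower genes with FSH, 0 of the 27 with PKA-CQR and 3 of the 9 higher in PKA-CQR over FSH. In these directions limma called 1680, 837 and 550 of all 13915 genes, whereas this t-test called only 376, 14 and 71. At the methods' own threshold, an unadjusted p of 0.001, the t-test gave 3, 2 and 4 of the 37 genes. Leaving out each array gave 23 to 31 lower with FSH, 14 to 28 lower with PKA-CQR and 3 to 11 higher in PKA-CQR over FSH. The lowest counts came without EGFP replicate 1 for both comparisons with EGFP (23 and 14), and without PKA-CQR replicate 1 or 2 for PKA-CQR over FSH (3 each). Array weights gave 14 higher genes in PKA-CQR over FSH, and over all genes 1043 higher and 998 lower against 550 and 412. The beta-actin covariate gave 1 gene higher with FSH. With the replicate number as a fixed block the 3 counts were 31, 26 and 12, as a random block 32, 28 and 11, and with a block that places EGFP replicate 2 in culture group 3 they were 32, 29 and 12. Under the fixed block 29 of the 31 FSH calls were kept, and *Vim* and *Msn* were lost. Other scalings, variance models and filters stayed within 1.5 times the counts given. Apart from the t-test, 20 of the 31, 12 of the 27 and 3 of the 9 calls held in every alternative, the last being *Tagln*, *Pdlim3* and *Filip1l*. Where a gene that a dim-gene filter removes before the test is not counted as lost, the first of these are 23 and 14. Why the other counts moved was not tested. Of the 37 genes, 6 had mean signals below the median of all genes and 13 were brighter than 90% of genes, and how far background or saturation limits their folds was not tested.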
